A study of Mus musculus with 6 samples.

Results

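The genes described here encode 31 proteins of the sarcomere filaments and the Z-disc, taken by symbol from a fixed list of thick filament, thin filament, titin, M-band, Z-disc and Z-disc-linked genes. All 31 were found in the deposited table of 15118 genes, each in 1 row. Of these, 29 reached at least 1 RPKM in at least 3 hearts and were tested, and Myom2 and Xirp2 did not. RPKM is reads per kilobase of the exons used, scaled to the reads of the library.

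The sarcomere is the contractile unit of striated muscle. Thick filaments of myosin heavy and light chains pull on thin filaments of actin and tropomyosin, titin spans from the M-band at the centre to the Z-disc at the edge, and the Z-disc anchors thin filaments through alpha-actinin and passes force to the desmin network. The fetal mouse heart makes several isoforms of the same part at once. Myl7 and Myl4 encode the light chains typical of atrial muscle, Myl2 and Myl3 those typical of the ventricle, Myh7 is the main ventricular heavy chain before birth, and Acta1, the skeletal alpha-actin, is expressed beside the cardiac Actc1.

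RNA was sequenced from whole Black-Swiss mouse hearts at embryonic day E12.5, when the chambers are formed and the ventricular wall is thickening. The 3 Hif1a mutant hearts (mutants 5, 8 and 10) were Hif1a Null/flox and the 3 control hearts (controls 2, 5 and 9) were Hif1a WT/flox. Hif1a encodes the subunit of HIF1 that is stabilised when oxygen is low. NKX2-5 Cre/WT was common to all 6, so controls too express Cre from the Nkx2-5 locus, in heart muscle and its progenitors, and hold a floxed allele. The hearts also hold cells without Cre activity, which have a null Hif1a allele in mutant hearts and a wild-type one in control hearts beside the floxed allele. The comparison asks how transcripts differ between these genotypes. The labels do not say whether hearts came from 1 litter, so the tests speak only of the spread among the 6 libraries. The low values imply between 101500000 (mutant 8) and 159100000 (mutant 10) reads a library, and counting error at this depth is included in the spread between hearts. Hif1a measured 75.7, 55.0 and 77.7 RPKM in mutants 5, 8 and 10, against 61.1, 46.4 and 46.4 RPKM in controls 2, 5 and 9 (limma adjusted p = 0.36). That value covers all exons used together and does not check the deletion. Control 2 and mutant 8 lay at opposite ends of the first principal component, which held 45.3% of the variance, and mutant 5 lay between controls 5 and 9.

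None of the 29 tested sarcomere and Z-disc genes passed the threshold, a Benjamini-Hochberg adjusted p under 0.05 in limma over all 13080 tested genes. Over all tested genes 0.818% passed, 55 higher and 52 lower in mutant hearts. With values centred on their median the split was 57 and 34, with haemoglobin genes taken out of the scaling 54 and 79, and with centring on other heart muscle genes 221 and 39. At an unadjusted p of 0.05 the sarcomere genes numbered 6 higher and 2 lower, and 11.2% of all tested genes reached that level in either direction. The median log2 change of the 29 genes, mutant minus control on log2(RPKM + 1), was 0.06, against −0.03 over all tested genes. Of the 29 changes 20 were positive and 9 negative, against 5567 and 7513 over all 13080 tested genes. In 8 of the 29 the values of the genotypes did not overlap. These were Myl6b, Myl7, Myl4, Actc1, Csrp3 and Cryab, each higher in all 3 mutant hearts than in any control heart, and Lmod2 and Fhl2, each lower. The same holds for 17.0% of all tested genes, 7.60% higher and 9.43% lower.

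The 95% interval of the log2 change lay within 1 on either side of 0 in 28 of the 29 genes, the exception being Myl6b. It lay within 0.5 in 19, among them Myh7, Myl2, Myl3, Mybpc3, Ttn, Myom1, Tpm1, Actn2, Ldb3 and Tcap. Over all 13080 tested genes it lay within 1 in 12731 and within 0.5 in 10159. The spread between hearts of a genotype was a median SD of 0.18 on the log2 scale for the 29 genes and 0.14 over all tested genes.

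**Figure D1:**
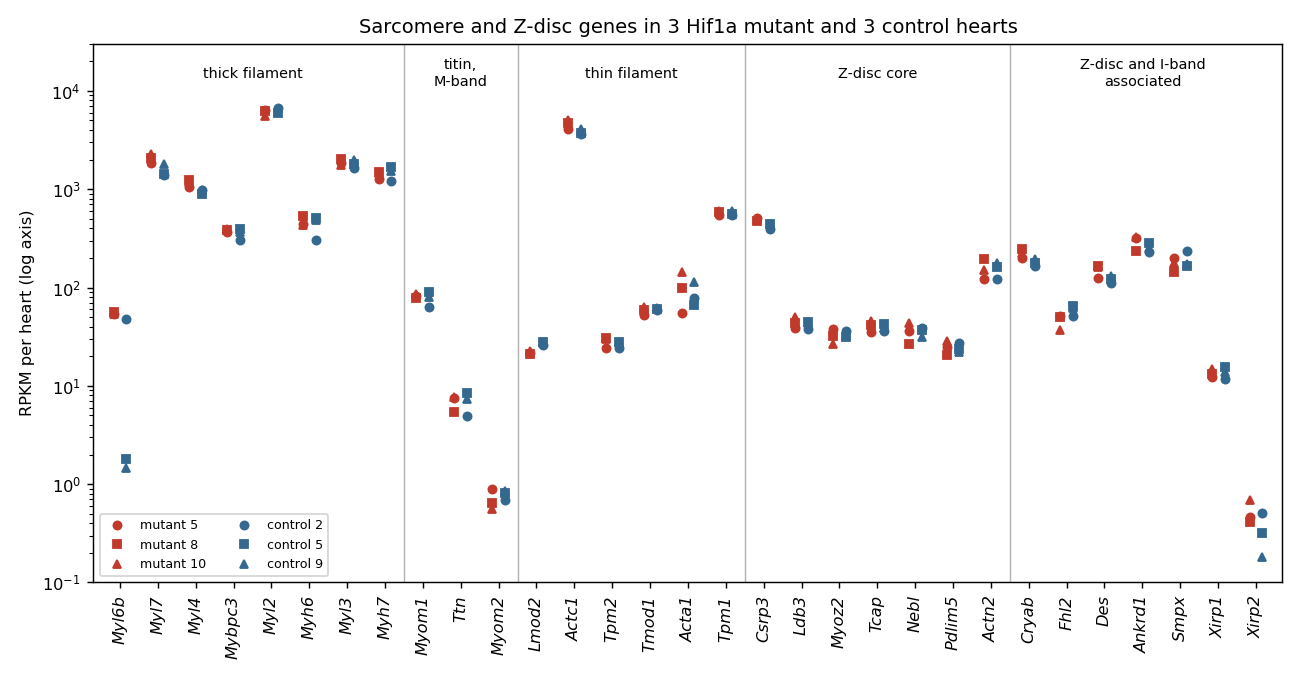
RPKM of the 31 genes in each heart on a log axis, grouped by role, with mutant hearts in red left of control hearts in blue and a marker shape for each heart. Levels ran from a mean of 6212 RPKM for Myl2 to under 1 RPKM for Myom2 and Xirp2, and Myl6b alone had control hearts far apart (47.8, 1.81 and 1.46 RPKM).

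Several of these genes were among the most abundant transcripts of the hearts. Myl2 had the highest mean of all 15118 genes (6212 RPKM over the 6 hearts) and Actc1 the sixth highest (4232 RPKM). The 29 tested genes held 5.62%, 5.86% and 6.02% of the summed RPKM of the table in mutants 5, 8 and 10, against 5.16%, 5.65% and 5.94% in controls 2, 5 and 9. The ranges overlap, and control 2 was the lowest of all hearts. Against the control mean the median of the 29 genes deviated by 0.04, 0.06 and 0.17 on the log2 scale in mutants 5, 8 and 10, and by −0.12, 0.04 and 0.06 in controls 2, 5 and 9.

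Among the thick filament genes, both atrial light chains had higher values in every mutant heart than in any control heart, without passing the threshold. Myl7, the atrial regulatory light chain (chromosome 11, 5896637 to 5898782, minus strand of mm10), measured 1843, 2074 and 2282 RPKM in mutants 5, 8 and 10, against 1401, 1440 and 1810 RPKM in controls 2, 5 and 9. The lowest mutant heart lay just above control 9, the highest control. The means were 2066 ± 220 RPKM in mutant and 1550 ± 226 RPKM in control hearts (SD, n = 3 each), a log2 change of 0.42 ± 0.13 SE (limma adjusted p = 0.27). Myl4, the atrial essential light chain, measured 1045, 1233 and 1172 RPKM in mutants 5, 8 and 10, against 980, 902 and 971 RPKM in controls 2, 5 and 9. Its log2 change was 0.27 ± 0.10 SE (limma adjusted p = 0.36).

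The ventricular light chains and the heavy chains overlapped between genotypes. Myl2, the ventricular regulatory light chain, measured 6382, 6178 and 5515 RPKM in mutants 5, 8 and 10, against 6627, 5978 and 6594 RPKM in controls 2, 5 and 9 (log2 change −0.09, 95% interval −0.33 to 0.16). Mutant 10, the heart with the most Myl7, had the least Myl2. Myl3, the ventricular essential light chain, measured 1863, 2036 and 1758 RPKM in mutants 5, 8 and 10, against 1635, 1797 and 1996 RPKM in controls 2, 5 and 9 (log2 change 0.06, interval −0.19 to 0.32). The beta heavy chain Myh7 measured 1280, 1485 and 1478 RPKM in mutants 5, 8 and 10, against 1213, 1679 and 1519 RPKM in controls 2, 5 and 9. The alpha heavy chain Myh6, the main heavy chain of the adult mouse heart, measured 439, 538 and 428 RPKM in mutants 5, 8 and 10, against 304, 504 and 484 RPKM in controls 2, 5 and 9. Control 2 was the lowest heart for both heavy chains and for Mybpc3, the cardiac myosin-binding protein C (371 to 395 RPKM in mutant and 305 to 395 RPKM in control hearts). Between Myh6 and Myh7, 22.6% of the 50-base words in the longest Myh6 transcript also occur in Myh7, so reads there could count for either gene. Actc1 and the 4 light chains of this comparison share no such words with another gene.

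Atrial over ventricular partners were compared as ratios within each heart. The RPKM ratio of Myl7 to Myl2 was 0.289, 0.336 and 0.414 in mutants 5, 8 and 10, against 0.211, 0.241 and 0.275 in controls 2, 5 and 9. All 3 mutant hearts lay above all 3 controls. The log2 ratio differed by 0.51 between genotypes (exact two-sided permutation p = 0.10, the smallest p that 3 against 3 hearts allow, and 0.40 adjusted over 4 pairs). The Myl4 to Myl3 ratio was 0.561, 0.606 and 0.667 in mutants 5, 8 and 10, against 0.599, 0.502 and 0.487 in controls 2, 5 and 9, with mutant 5 below control 2 (difference 0.21, exact permutation p = 0.20, 0.40 adjusted). The Myh6 to Myh7 ratio was 0.343, 0.362 and 0.290 in mutants 5, 8 and 10, against 0.251, 0.2999 and 0.318 in controls 2, 5 and 9, with mutant 10 inside the control range (difference 0.19, exact permutation p = 0.30, 0.40 adjusted). The summed RPKM of the 3 atrial-type genes Myl7, Myl4 and Myh6 was 3327, 3845 and 3883 in mutants 5, 8 and 10, against 2685, 2846 and 3265 in controls 2, 5 and 9. The summed RPKM of Myl2, Myl3 and Myh7 was 9526, 9699 and 8750 in the mutants and 9475, 9454 and 10109 in the controls. In whole hearts, more or fewer cells of a type and more or less RNA per cell cannot be told apart.

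**Figure D2:**
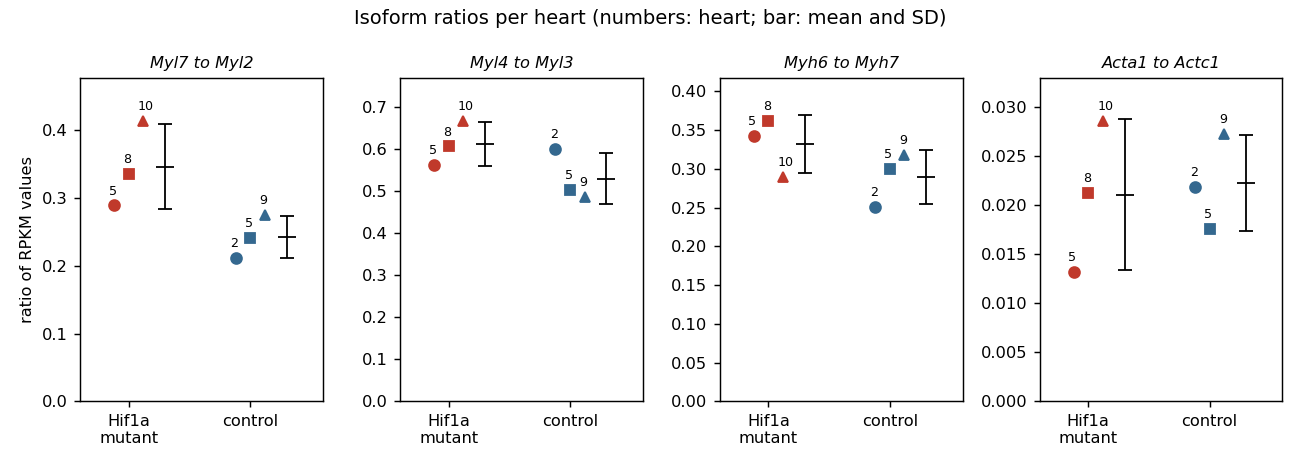
Ratio of RPKM values within each heart for 4 isoform pairs, with mutant hearts left and control hearts right, the heart's number above each point, and a bar for the mean and SD of 3 hearts. The genotypes do not overlap for Myl7 to Myl2 alone (0.289 to 0.414 in mutant and 0.211 to 0.275 in control hearts).

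Genes outside the sarcomere that were listed as atrial or ventricular markers had log2 changes of both signs beside these ratios. Whether each of them is confined to its chamber at this age was not tested. Of the 10 genes listed as atrial, 1 passed and was higher, the atrial natriuretic peptide gene Nppa (1602, 1759 and 1860 RPKM in mutants 5, 8 and 10, against 986, 1039 and 1083 RPKM in controls 2, 5 and 9, limma adjusted p = 0.012). The other 9 included 8 with negative log2 changes, against 7513 of all 13080 tested genes. The median over the 10 was −0.26. Among the other 9, values without overlap were lower in 4 (Cav1, Nr2f1, Sln and Nr2f2) and higher in 0, against 9.43% and 7.60% of all tested genes. Sarcolipin (Sln), an atrial calcium pump inhibitor named here after its values were seen, measured 2.66, 2.73 and 0.269 RPKM in mutants 5, 8 and 10, against 3.35, 3.68 and 5.87 RPKM in controls 2, 5 and 9. The summed RPKM of the 10 was 1682 to 1914 in mutant and 1063 to 1163 in control hearts, which is mostly Nppa, and without it 53.5 to 80.7 in mutant and 76.4 to 80.5 in control hearts. Of 9 ventricular markers, 1 passed and was higher, Cited1 (limma adjusted p = 0.032), the median was 0.08, and the sum was 288 to 331 in mutant and 228 to 270 in control hearts. Without Cited1 the ventricular sums overlapped, at 127 to 161 in mutant and 138 to 163 in control hearts. Hey2, a ventricular transcription factor, was lower in every mutant heart than in any control heart (20.6 ± 1.86 RPKM in mutant and 26.4 ± 1.24 RPKM in control hearts, SD, n = 3 each, limma adjusted p = 0.20). Hand1 and Irx5 went the other way, higher in every mutant heart than in any control heart (limma adjusted p = 0.30 for each). Among the 9, values without overlap were higher in 3 and lower in 1, against 7.60% and 9.43% of all tested genes. The sums without Nppa and without Cited1 were added after the values were seen. The part of chamber proportions in the light chain values was not tested.

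Myl6b, an essential light chain of slow skeletal and non-muscle myosin, had the largest log2 change of the 29 genes and no call. It measured 53.2, 56.0 and 53.5 RPKM in mutants 5, 8 and 10, against 47.8, 1.81 and 1.46 RPKM in controls 2, 5 and 9. Control 2 stood near the mutant hearts, and the mean of controls 5 and 9 was 32.2-fold lower than the mean of the other 4 hearts. The log2 change was 2.99 ± 0.94 SE (95% interval 0.85 to 5.12, limma adjusted p = 0.27). With 1 heart left out it ran from 2.24 (without control 9, limma adjusted p = 0.45) to 4.39, and it was 2.33 without control 5 (limma adjusted p = 0.65). A robust prior gave a limma adjusted p of 0.53. Without control 2 it was 4.39 and passed (limma adjusted p = 2.75e-06), and without control 2 and mutant 8 together it was 4.37 (limma adjusted p = 1.08e-05). It also passed after centring on heart muscle genes outside the sarcomere (log2 change 3.18, limma adjusted p = 0.000549). Its SD within the control hearts was 2.44 on the log2 scale, the second largest of 13080 tested genes, whose median was 0.12.

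No neighbouring gene in the table showed a split of this size. Myl6b lies on mm10 chromosome 10 (128494157 to 128498685, minus strand), with 11 bases between it and Myl6, the non-muscle essential light chain gene on the same strand. Myl6 measured 403, 395 and 420 RPKM in mutants 5, 8 and 10, against 435, 365 and 354 RPKM in controls 2, 5 and 9. Controls 5 and 9 were its lowest hearts too, within a narrow range. Over 26 other genes of the table within 250 kb the largest difference between controls 5 and 9 and the other 4 hearts was 0.36 on the log2 scale, against 4.35 for Myl6b. In the whole table Myl6b was the single gene with controls 5 and 9 lowest and a gap of at least 1 on the log2 scale to the other hearts. With any 2 hearts lowest, 15 tested genes had a gap of at least 1 and 5 a gap of at least 2, Myl6b included. These counts were chosen after its values were seen. Of its 50-base words 0.921% occur in any other gene, all of them in Gm5526. The share found in Myl6 was not listed apart and can be no larger than this. The RefSeq window from 250 bases before to 50 after its start (GRCm38.p6, chr10:128498636-128498935, minus strand) is shown because this gene differs most between hearts. It holds no match, on either strand, to the CArG box bound by serum response factor, to the MEF2 box or to TATAAA.
Myl6b: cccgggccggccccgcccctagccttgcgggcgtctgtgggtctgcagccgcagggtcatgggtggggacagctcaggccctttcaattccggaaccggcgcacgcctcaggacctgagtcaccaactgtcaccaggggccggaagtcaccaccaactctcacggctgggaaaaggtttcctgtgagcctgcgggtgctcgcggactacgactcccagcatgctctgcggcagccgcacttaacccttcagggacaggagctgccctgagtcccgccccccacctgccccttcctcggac

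**Figure D3:**
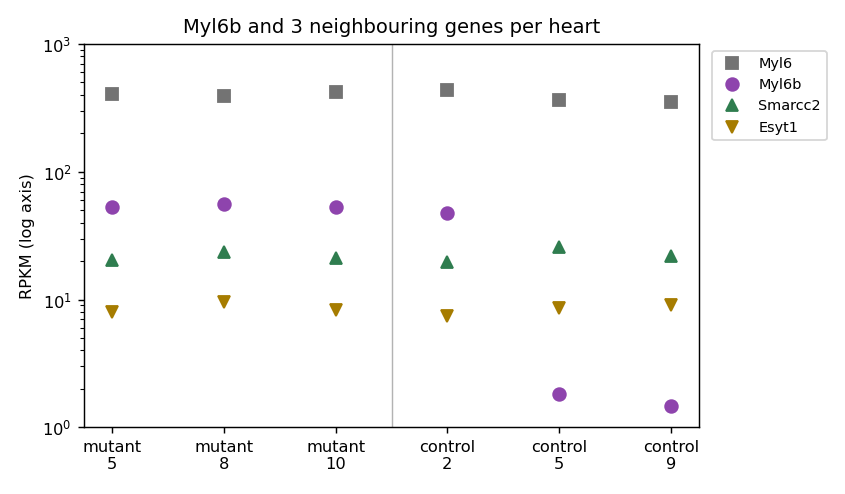
RPKM of Myl6b and of the neighbouring genes Myl6, Smarcc2 and Esyt1 in each heart on a log axis, mutant hearts left of control hearts. Myl6b was 1.81 and 1.46 RPKM in controls 5 and 9 and between 47.8 and 56.0 RPKM in the other 4 hearts, and Myl6 was between 354 and 435 RPKM in all 6.

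Titin and the M-band genes overlapped between genotypes. Ttn, the giant elastic filament, measured 7.50, 5.40 and 7.77 RPKM in mutants 5, 8 and 10, against 4.97, 8.44 and 7.37 RPKM in controls 2, 5 and 9 (log2 change 0.01, 95% interval −0.41 to 0.42). Its low RPKM is per kilobase, and its longest transcript holds 106824 bases. Myom1, which links titin and myosin at the M-band, measured 82.8, 78.2 and 85.9 RPKM in mutants 5, 8 and 10, against 64.0, 89.4 and 80.2 RPKM in controls 2, 5 and 9. Control 2 was again the lowest heart for both. Myom2, an M-band protein of fast and adult muscle, was under 1 RPKM in every heart (0.556 to 0.890 RPKM in mutant and 0.696 to 0.858 RPKM in control hearts) and was not tested.

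Of the thin filament genes, Lmod2 and Actc1 had no overlap between genotypes, in opposite directions. Lmod2, leiomodin 2, which promotes thin filament growth, measured 21.6, 21.01 and 22.6 RPKM in mutants 5, 8 and 10, against 25.9, 27.8 and 27.1 RPKM in controls 2, 5 and 9. Every mutant heart lay below every control heart, with a tight spread in each genotype (21.7 ± 0.791 RPKM in mutant and 26.9 ± 0.959 RPKM in control hearts, SD, n = 3 each). The log2 change was −0.30 ± 0.09 SE, with the smallest adjusted p of the 29 genes (limma adjusted p = 0.22). Actc1, the cardiac alpha-actin, measured 4144, 4702 and 5048 RPKM in mutants 5, 8 and 10, against 3602, 3767 and 4130 RPKM in controls 2, 5 and 9. Mutant 5 lay barely above control 9, and the log2 change was 0.27 ± 0.11 SE (limma adjusted p = 0.43).

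Acta1 varied most within genotypes after Myl6b. It measured 54.8, 99.98 and 144 RPKM in mutants 5, 8 and 10, against 78.7, 66.0 and 113 RPKM in controls 2, 5 and 9, with the lowest and the highest of all hearts both mutant. The Acta1 to Actc1 ratio was 0.0132, 0.0213 and 0.0286 in mutants 5, 8 and 10, against 0.0218, 0.0175 and 0.0273 in controls 2, 5 and 9 (exact permutation p = 0.80, also after adjustment over 4 pairs). Skeletal muscle was looked for with 10 markers (Myod1, Myog, Myf5, Myf6, Pax7, Pax3, Chrna1, Chrng, Chrnd and Cdh15), and none is listed in the table, whose genes all reach a geometric mean of 0.5 RPKM in at least 1 genotype. The tropomyosins Tpm1 and Tpm2, which regulate access of myosin to actin, and Tmod1, which caps the pointed end of thin filaments, overlapped between genotypes. Tpm1 ranged from 543 to 595 RPKM in mutant and from 546 to 600 RPKM in control hearts, and Tmod1 from 52.0 to 64.0 RPKM in mutant and from 59.0 to 62.0 RPKM in control hearts. Exons of Tmod1 share 32.6% of their bases with Tstd2 on the opposite strand, and no source used here states whether the libraries kept strand. Tpm2 ranged from 24.4 to 30.4 RPKM in mutant and from 24.2 to 28.0 RPKM in control hearts.

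The windows around the start of both alpha-actins and of Myl7 each hold a CArG box, and they are shown because these genes stand for the isoform comparison. Capitals mark the CArG box and, in the actins, TATAAA. The windows run from 250 bases before to 50 after the start in RefSeq (GRCm38.p6), at chr11:5898733-5899032 for Myl7, chr2:114052826-114053125 for Actc1 and chr8:123894726-123895025 for Acta1, all on the minus strand.
Myl7: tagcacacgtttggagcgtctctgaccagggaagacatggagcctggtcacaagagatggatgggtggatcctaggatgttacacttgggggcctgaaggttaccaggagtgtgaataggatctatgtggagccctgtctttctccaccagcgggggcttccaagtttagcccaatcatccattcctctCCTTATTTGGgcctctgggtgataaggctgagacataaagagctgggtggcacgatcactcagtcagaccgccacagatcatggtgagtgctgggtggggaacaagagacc
Actc1: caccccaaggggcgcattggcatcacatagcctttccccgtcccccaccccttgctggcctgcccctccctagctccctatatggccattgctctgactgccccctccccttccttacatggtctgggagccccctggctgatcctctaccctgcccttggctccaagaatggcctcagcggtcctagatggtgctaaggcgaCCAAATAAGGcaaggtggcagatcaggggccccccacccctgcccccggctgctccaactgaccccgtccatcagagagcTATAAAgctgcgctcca
Acta1: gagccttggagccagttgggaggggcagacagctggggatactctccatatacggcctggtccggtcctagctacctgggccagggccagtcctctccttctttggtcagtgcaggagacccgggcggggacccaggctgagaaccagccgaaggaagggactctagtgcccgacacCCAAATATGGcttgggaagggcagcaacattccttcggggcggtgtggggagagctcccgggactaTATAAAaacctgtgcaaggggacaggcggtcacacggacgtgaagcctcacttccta

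RefSeq windows were matched for 27 of the 31 genes. A CArG box, read on both strands, was found in 8 of the 27 (29.6%), namely Acta1, Actc1, Fhl2, Ldb3, Myl3, Myl7, Myom1 and Nebl, against 1.81% of 27025 genes with such windows. A MEF2 box was found in 5 of the 27 (18.5%, against 3.70% of all genes), and TATAAA in 6 (22.2%, against 15.7%). The core motif of HIF sites, ACGTG or GCGTG, was found in 10 of the 27 (37.0%, against 46.7% of all genes), with Myl4, Myl7 and Myl6b among them. Motif matches describe these windows and are not binding sites. Of the 8 genes with a CArG box, Actc1 and Myl7 had higher values in all mutant hearts, Fhl2 had lower ones, and the other 5 overlapped between genotypes. Over all tested genes, 17.0% had no overlap in either direction. A link between the motif and the genotype was not tested.

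No gene of the Z-disc core passed. All 7 genes had a 95% interval within 0.5 of 0 on the log2 scale, as had 10159 of all 13080 tested genes. The median change of the 7 was 0.01. Csrp3, the muscle LIM protein, measured 506, 471 and 495 RPKM in mutants 5, 8 and 10, against 398, 441 and 445 RPKM in controls 2, 5 and 9. It was the only core gene without overlap between genotypes (log2 change 0.20 ± 0.09 SE, limma adjusted p = 0.47). Ldb3, also called ZASP or Cypher, which binds alpha-actinin, measured 38.7, 43.4 and 50.03 RPKM in mutants 5, 8 and 10, against 37.7, 44.4 and 43.2 RPKM in controls 2, 5 and 9. Actn2, the sarcomeric alpha-actinin that cross-links actin at the Z-disc, ranged from 121 to 193 RPKM in mutant and from 123 to 177 RPKM in control hearts. Its mean was 155 ± 36.1 RPKM in mutant and 154 ± 28.0 RPKM in control hearts (SD, n = 3 each).

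The other 4 core genes had log2 changes between −0.07 and 0.05. Tcap, telethonin, which joins the ends of titin, ranged from 35.1 to 45.5 RPKM in mutant and from 36.3 to 42.4 RPKM in control hearts. Myoz2, a calcineurin-binding Z-disc protein, ranged from 26.7 to 37.8 RPKM in mutant and from 31.5 to 35.8 RPKM in control hearts. Nebl, the cardiac nebulin relative, ranged from 26.3 to 43.5 RPKM in mutant and from 31.6 to 38.9 RPKM in control hearts, and the LIM protein Pdlim5 from 20.6 to 28.4 RPKM in mutant and from 22.2 to 27.4 RPKM in control hearts.

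Proteins attached to the Z-disc and the I-band were more mixed. Cryab, the small heat shock protein alpha-B-crystallin, which protects desmin and titin, measured 200.4, 244 and 223 RPKM in mutants 5, 8 and 10, against 166, 179 and 196 RPKM in controls 2, 5 and 9. All mutant hearts lay above all control hearts (log2 change 0.30 ± 0.11 SE, limma adjusted p = 0.33). Exons of Cryab share 17.0% of their bases with Hspb2, the adjacent small heat shock gene on the opposite strand. Fhl2, a LIM protein that binds titin and signalling factors, measured 51.1, 49.6 and 37.1 RPKM in mutants 5, 8 and 10, against 51.8, 64.4 and 62.6 RPKM in controls 2, 5 and 9. Mutant 5 lay just below control 2, and the log2 change was −0.38 ± 0.14 SE (limma adjusted p = 0.36).

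Des, the muscle intermediate filament desmin, measured 125, 166 and 162 RPKM in mutants 5, 8 and 10, against 111, 121 and 132 RPKM in controls 2, 5 and 9, with mutant 5 inside the control range (log2 change 0.31 ± 0.13 SE, limma adjusted p = 0.42). Ankrd1, a titin-binding ankyrin repeat protein that responds to load, ranged from 234 to 328 RPKM in mutant and from 227 to 284 RPKM in control hearts. Smpx, a small muscle protein, ranged from 145 to 200.4 RPKM in mutant and from 166 to 234 RPKM in control hearts. Xirp1, an actin-binding protein of cell junctions in muscle, ranged from 12.2 to 14.8 RPKM in mutant and from 11.8 to 15.4 RPKM in control hearts, and its relative Xirp2 was under 1 RPKM in every heart and was not tested.

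**Figure D4:**
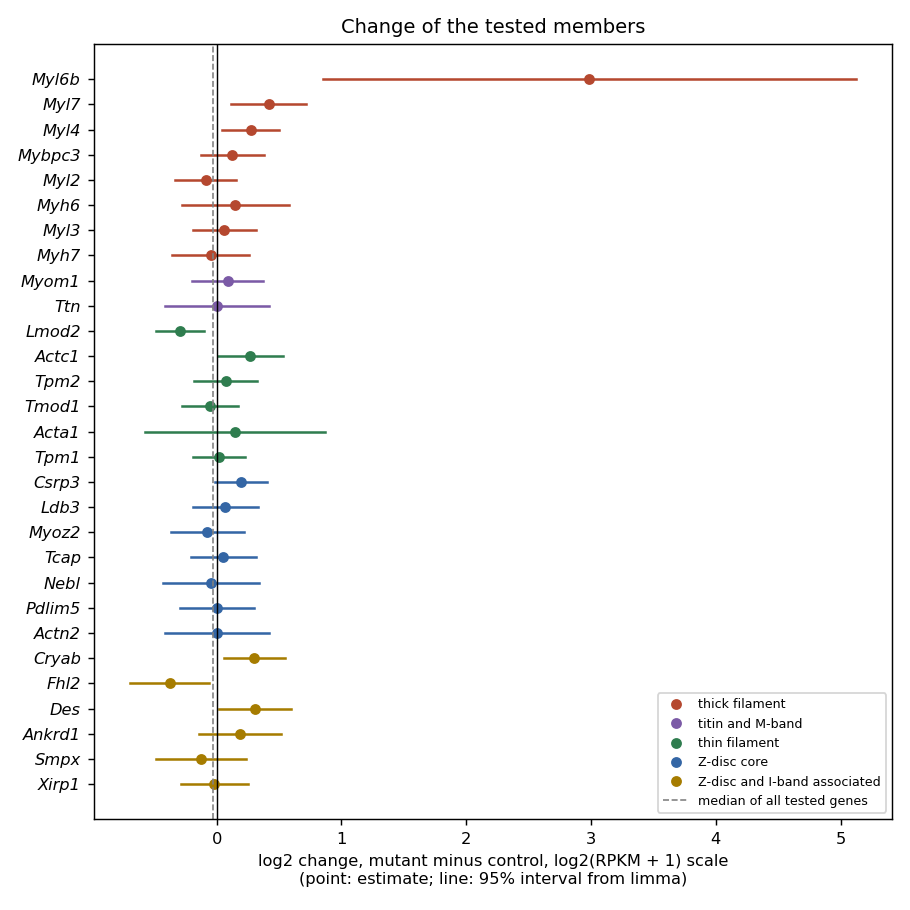
Log2 change of the 29 tested genes, mutant minus control, with the 95% interval from limma as a line, coloured by role, and the median of all tested genes as a dashed line. Intervals of 28 genes lie between −1 and 1, and that of Myl6b runs from 0.85 to 5.12.

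Sarcomere genes outside these 31 were counted from 4 lists of 73 symbols, of which 59 were tested. Of the 59, 1 passed and was higher in mutant hearts and none passed lower. This was Trim54, a RING-finger protein that binds microtubules and the sarcomere, at 5.69, 8.04 and 7.31 RPKM in mutants 5, 8 and 10, against 3.15, 2.73 and 3.70 RPKM in controls 2, 5 and 9. All mutant hearts lay above all control hearts (log2 change 0.93 ± 0.14 SE, limma adjusted p = 0.019), and 0.420% of all tested genes passed in this direction. Trim54 did not pass without mutant 10, control 2 or control 5 (limma adjusted p = 0.12, 0.079 and 0.12) or without control 2 and mutant 8 together (0.072). The log2 changes in these were 0.90, 0.92, 0.85 and 0.83.

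The 59 genes had a median log2 change of 0.00, with 31 positive and 28 negative. Besides Trim54, the thick filament and M-band list (15 tested, median 0.08) was led by Mybphl, a relative of myosin-binding protein H. It measured 11.2, 14.7 and 19.7 RPKM in mutants 5, 8 and 10, against 8.15, 9.06 and 9.35 RPKM in controls 2, 5 and 9 (limma adjusted p = 0.15). Mybphl passed without mutant 5 and after centring on heart muscle genes outside the sarcomere. In the thin filament list (11 tested, median −0.01), Nrap, a nebulin-related scaffold of young myofibrils, measured 9.63, 7.47 and 7.80 RPKM in mutants 5, 8 and 10, against 10.4, 13.0 and 12.6 RPKM in controls 2, 5 and 9 (limma adjusted p = 0.16). The non-muscle tropomyosin Tpm4 measured 91.6 ± 6.84 RPKM in mutant and 113 ± 4.42 RPKM in control hearts (SD, n = 3 each, limma adjusted p = 0.27). In the Z-disc and cytoskeletal link list (22 tested, median −0.01), Synpo2 and Myoz1 had the smallest p, both with a limma adjusted p = 0.44. Among chaperones (11 tested, median 0.03), Hspb2 averaged 79.1 ± 7.42 RPKM in mutant and 61.3 ± 6.25 RPKM in control hearts and Hspb1 438 ± 116 RPKM in mutant and 294 ± 65.2 RPKM in control hearts (SD, n = 3 each, limma adjusted p = 0.25 and 0.38).

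Markers of the cells in the heart were measured beside the sarcomere genes. Of 20 heart muscle genes outside the sarcomere none passed, the median log2 change was −0.02, and the summed RPKM was 1292 to 1521 in mutant and 1386 to 1527 in control hearts. The muscle creatine kinase Ckm and myoglobin (Mb) had the smallest p of these, with log2 changes of −0.66 and −0.61 (limma adjusted p = 0.11 and 0.16). Summed RPKM of 12 epicardial and mesenchymal markers was 311 to 423 in mutant and 479 to 524 in control hearts. Split after the values were seen, the 6 mesenchymal and matrix genes (Col1a1, Col1a2, Col3a1, Postn, Dcn and Pdgfra) summed to 222 to 330 in mutant and 382 to 447 in control hearts. The 6 epicardial genes (Wt1, Tbx18, Tcf21, Upk1b, Upk3b and Aldh1a2) overlapped, with sums of 70.7 to 93.8 in mutant and 74.7 to 99.0 in control hearts. Summed RPKM of 9 macrophage markers was 10.4 to 27.5 in mutant and 31.6 to 38.7 in control hearts, without overlap. Of these 9, values without overlap were lower in 6, against 9.43% of all tested genes. No mesenchymal, epicardial or macrophage marker passed. Summed RPKM of 10 endothelial and endocardial markers was 115 to 138 in mutant and 126 to 146 in control hearts. Of these 10, 8 had negative log2 changes, against 7513 of all 13080 tested genes. Cldn5 (limma adjusted p = 0.064), Kdr, Flt1 and Cdh5 were lower without overlap, 4 of the 10, against 9.43% of all tested genes. Summed RPKM of 6 smooth muscle markers was 359 to 483 in mutant and 355 to 382 in control hearts, and of 10 erythroid markers 11719 to 21063 in mutant and 13963 to 16571 in control hearts. No endothelial, smooth muscle or erythroid marker passed. The part of cell composition in the sarcomere values was not tested.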

How the data were processed

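Total RNA of 6 whole hearts was extracted with TRIzol and sequenced with Illumina protocols, per the labels. The submitters' processing notes name Trim Galore, TopHat2 and mm10, and no source used here names the counter, its annotation or the strand setting. The authors deposited 1 table of linear RPKM values, with a column for each heart. Its header names no unit. The unit was taken from the values, since in single-exon genes low values fell on whole multiples of a step (within 0.1 of a step) in 83.4% to 88.9% of cases. The table lists no value of 0.

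The test was limma 3.58.1 (R 4.3.3) with its trend option. It ran on log2(RPKM + 1) of genes that reached 1 RPKM in 3 or more libraries, with two-sided p-values and Benjamini-Hochberg adjustment over 13080 genes. All 6 hearts entered, with no covariate. Isoform ratios were tested by exact permutation over hearts. Every one of the 31 genes is named. Values in every heart are given for the isoform pairs, for the 2 genes with the smallest p of each role and for some others. From the other sarcomere lists, genes that passed or had the smallest p are named, and also Mylpf and Myl1. From the marker lists, genes that passed and some others are named, not always those with the smallest p. The members and lists were chosen with earlier results of these data known. Alternatives were pseudocounts of 0.1 and 5, no filter, a minimum of 5 RPKM, 3 other scalings, other variance priors and leaving out hearts. Gene positions are from GENCODE M21 (mm10) and promoter sequences from RefSeq (GRCm38.p6).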

Additional observations from a re-analysis of the deposited data

How the results depend on the processing

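Over 16 alternative settings, 410 of 464 values of the tested sarcomere and Z-disc genes kept their sign and their side of the threshold, 51 changed sign and 3, all of Myl6b, gained a call. The 18 genes that changed sign had a log2 change (mutant minus control) of at most 0.15 in size, and none of them passed in any setting. Centring on heart muscle genes outside the sarcomere moved the median of all tested genes from −0.03 to 0.16. It gave 260 genes past the threshold, against 107, 1 sarcomere gene (Myl6b), 2 other sarcomere genes, a median of the sarcomere genes of 0.25, and log2 changes of 0.15 for Myh7, 0.10 for Myl2, 0.14 for Tmod1, 0.15 for Nebl, 0.12 for Myoz2, 0.17 for Xirp1 and 0.063 for Smpx. Median centring gave 0.016 for Xirp1. Rescaling without haemoglobin genes gave −0.033 for Ttn, −0.025 for Tpm1, −0.041 for Actn2 and −0.036 for Pdlim5.

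With 1 heart left out, the genes past the threshold numbered 45 (without control 5) to 198 (without mutant 5), with 62 and 68 without control 2 and control 9 and 46 without mutant 10. The sarcomere genes that passed numbered 0 to 1 and the other sarcomere genes 0 to 2. The Acta1 to Actc1 log2 ratio differed by −0.38 to 0.17. Log2 changes ran from −0.084 to 0.28 for Myh6, −0.0088 to 0.14 for Myl3, −0.18 to 0.056 for Myh7, −0.041 to 0.20 for Myom1, −0.19 to 0.15 for Ttn, −0.12 to 0.030 for Tmod1, −0.17 to 0.52 for Acta1, −0.012 to 0.060 for Tpm1, −0.023 to 0.16 for Ldb3, −0.19 to 0.051 for Myoz2, −0.030 to 0.15 for Tcap, −0.21 to 0.15 for Nebl, −0.10 to 0.12 for Pdlim5, −0.17 to 0.17 for Actn2, −0.23 to 0.024 for Smpx and −0.11 to 0.069 for Xirp1. Without control 2 and mutant 8 together, the pair farthest apart on the leading principal component, 1 sarcomere gene (Myl6b) and 0 other sarcomere genes passed, and log2 changes were −0.19 for Myh6, −0.065 for Myl3, −0.042 for Ttn, −0.0054 for Myom1, −0.030 for Tpm1, −0.050 for Tpm2, −0.32 for Actn2, −0.017 for Tcap, 0.21 for Nebl and 0.15 for Smpx. With 1 heart left out, Myl6b ran from 2.24 to 4.39, and Myl7 (0.34 to 0.54), Myl4 (0.22 to 0.34), Actc1 (0.21 to 0.35), Csrp3 (0.15 to 0.23) and Cryab (0.23 to 0.37) kept a positive sign and Lmod2 (−0.32 to −0.27) and Fhl2 (−0.47 to −0.23) a negative one. The cause was not tested. Myl6b passed where control 2, its 1 high control, was left out, and also with control 2 kept, after centring on heart muscle genes outside the sarcomere. With 3 hearts a genotype, the spread between hearts limits what can be called. No paired analysis was run, because the labels give neither litters nor pairs of hearts.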
